A study of Mus musculus with 18 samples.

Results

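The levels of 10 genes of the nucleolus and of RNA polymerase I (Pol I) were followed in serum-grown mESCs (mouse embryonic stem cells) after siRNA KD (knockdown) of the cohesin subunit *Stag1*. The genes, *Ncl*, *Npm1*, *Fbl*, *Nop56*, *Nop58*, *Polr1a*, *Polr1b*, *Ubtf*, *Rrn3* and *Dkc1*, were given as a list by name. All 10 were found among the 18659 genes of the table, and each library was set against the scrambled siRNA (scr) library of its own replicate set. The cells were male E14 mESCs grown with FCS and LIF and treated for 24 h. The siRNA treatments sequenced were scr, SP (the SmartPool to *Stag1*), 3p and 5p (siRNAs to either end of the *Stag1* transcript, of which 5p was a single custom duplex) and SATS (enzymatically prepared siRNA to the 5′ end of *Stag1* transcripts that start at an mESC-enriched upstream site). Set 1 had 1 scr library and 3 of SP (1a, 1b, 1c), while each treatment was sequenced once in set 2 and once in set 3. Set 2 also held untreated cells and set 3 cells given luciferase siRNA (enzymatically prepared, like SATS), which gives 16 libraries of RNA depleted of rRNA. None of these cells carried a genetic change of *Stag1*, and a KD lowers the RNA without removing it.

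In the nucleolus, Pol I transcribes the rDNA repeats into a long precursor that is modified, cut and assembled into ribosomal subunits. POLR1A and POLR1B are the catalytic subunits of the enzyme, UBTF keeps rDNA open and RRN3 (TIF-IA) brings the polymerase to the promoter. FBL, NOP56 and NOP58 are core proteins of the box C/D snoRNPs that methylate rRNA, and DKC1 is the pseudouridine synthase of the box H/ACA snoRNPs. NCL (nucleolin) and NPM1 (nucleophosmin) are abundant nucleolar proteins that act in rRNA production and in the structure of the nucleolus. In mESCs, NCL is part of a complex with TRIM28 and LINE1 RNA that promotes rRNA synthesis.

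Set 1 held 9023224 to 14040830 reads on genes per library and sets 2 and 3 held 32137666 to 45660840. *Rn45s*, the row of the rRNA precursor sequence, made up 69.2% to 79.1% of set 1 reads and 14.7% to 23.9% of those of sets 2 and 3, so that 1883691 to 4321867 reads per library were left for all other genes in set 1. Mature rRNA is cut from this precursor, so the row cannot tell them apart. The members rested on 248 to 11259 reads each in set 1 and on 4900 to 121148 in sets 2 and 3. *Stag1* stood at 17.3% to 32.8% of the scr library of its set in the SP, 3p and 5p libraries and at 50.5% and 49.7% in the SATS libraries, so the SATS libraries retained more *Stag1* RNA. The 9 ES cell markers were all above a mean of 50 normalised reads in sets 2 and 3, with a summed level of 30789 to 41170 per library. The summed level of 8 fibroblast markers ran from 384 to 5822 in the same libraries, highest in untreated cells, that of 7 primitive endoderm markers from 196 to 357 and that of 6 neural markers from 1019 to 1695. Of these markers 0 were at 0 in all libraries, and the part of other cells in the members' levels was not tested. In bulk RNA, fewer cells with a transcript and less of it per cell cannot be told apart.

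Per kilobase of the principal annotated transcript, the mean scr level over the 3 sets put *Npm1* first, at 17698 ± 2935 normalised reads per kb (SD, n = 3). *Ncl* followed with 3986 ± 673, *Nop58* with 2727 ± 263, *Nop56* with 2482 ± 183, *Fbl* with 2080 ± 102 and *Rrn3* with 1328 ± 160 normalised reads per kb. *Dkc1* stood at 1067 ± 92.0, *Ubtf* at 827 ± 160, *Polr1b* at 612 ± 189 and *Polr1a* at 477 ± 54.8 normalised reads per kb (SD, n = 3 sets). The ranges of *Nop58* and *Nop56*, of *Dkc1* and *Ubtf*, of *Ubtf* and *Polr1b* and of *Polr1b* and *Polr1a* overlapped between neighbours in this order, whereas all other neighbours were separate. The order depends on the annotated length, which was 8202 bases for *Ncl* and 9216 for *Polr1a*; for *Nop58* it was 1713 bases, and another annotated transcript has 9507. Every other level is given as the normalised read count of the whole gene and is compared only between libraries.

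*Ncl* encodes nucleolin. In set 1 its normalised read count was 38813 in scr and 39276, 36210 and 37770 in SP 1a, 1b and 1c. In set 2 it was 28084 in scr, 28499 in untreated cells, 30570 in SP, 33026 in 3p, 30512 in 5p and 33352 in SATS. In set 3 it was 31193 in scr, 30314 with luciferase siRNA, 26951 in SP, 27846 in 3p, 25940 in 5p and 28727 in SATS. All 4 *Stag1* siRNAs were therefore above the scr and the untreated library in set 2 and below the scr and the luciferase library in set 3, and the KD and scr values overlapped when the sets were pooled.

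*Npm1* encodes nucleophosmin. Its normalised read count in set 1 was 31661 in scr and 31721, 31415 and 30426 in the SP libraries. Set 2 gave 23366 in scr, 22588 in untreated cells, 22552 in SP, 26645 in 3p, 26211 in 5p and 28425 in SATS. Set 3 gave 31675 in scr, 32247 with luciferase siRNA, 27065 in SP, 26533 in 3p, 30776 in 5p and 43746 in SATS. The SATS library was the highest of its set in both sets. Of the 75-base windows of the *Npm1* transcript, 30.9% also occur in annotated transcripts of 8 other genes, so its count is uncertain to the extent that such reads were assigned.

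The 3 box C/D members differed in their pattern. *Fbl*, the rRNA 2′-O-methyltransferase fibrillarin, had a normalised read count of 2364 in the scr library of set 1 and of 2806, 2923 and 2690 in SP. In set 2 *Fbl* was at 2497 in scr, 2755 in untreated cells, 2913 in SP, 2942 in 3p, 2626 in 5p and 2688 in SATS, and in set 3 at 2609 in scr, 2493 with luciferase siRNA, 2359 in SP, 2347 in 3p, 2538 in 5p and 2459 in SATS. Like *Ncl*, *Fbl* was above scr in all 4 KDs of set 2 and below it in all 4 of set 3. For *Fbl*, 67.3% of the 75-base windows are shared with other annotated transcripts, chiefly of *Tulp4* and *Gm5812*, and its count is therefore uncertain.

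*Nop56* and *Nop58* encode the paired scaffold proteins of the same particle. *Nop56* had a normalised read count of 4929 in the scr library of set 1, with 5105, 4895 and 4929 in SP. It was at 4272 in scr, 4388 in untreated cells, 4276 in SP, 4215 in 3p, 3933 in 5p and 4087 in SATS of set 2, and at 4778 in scr, 4731 with luciferase siRNA, 4670 in SP, 4337 in 3p, 4292 in 5p and 4420 in SATS of set 3. In both sets the 5p library was the lowest for *Nop56*, a gene with 35.8% of its windows shared with other transcripts.

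*Nop58* had a normalised read count of 4935 in the scr library of set 1 and of 4997, 4943 and 5138 in SP. It was at 4150 in scr, 4131 in untreated cells, 4322 in SP, 4399 in 3p, 4361 in 5p and 4903 in SATS of set 2, and at 4927 in scr, 4954 with luciferase siRNA, 4776 in SP, 4431 in 3p, 4682 in 5p and 6984 in SATS of set 3. As for *Npm1*, the SATS library was the highest of both sets. *Dkc1*, the box H/ACA member, had a normalised read count of 3127 in scr and 3549, 3322 and 3737 in SP of set 1. It was at 2693 in scr, 2746 in untreated cells, 2691 in SP and in 3p, 2682 in 5p and 3009 in SATS of set 2, and at 3153 in scr, 3211 with luciferase siRNA, 3039 in SP, 2803 in 3p, 3020 in 5p and 3461 in SATS of set 3. Again SATS was the highest library of sets 2 and 3, at 111.7% and 109.8% of scr.

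The 2 catalytic subunits of Pol I were lowest in SATS within sets 2 and 3. *Polr1a* had a normalised read count of 4132 in scr and 3808, 4499 and 4180 in SP of set 1. It was at 4074 in scr, 4169 in untreated cells, 4015 in SP, 3740 in 3p, 4015 in 5p and 3618 in SATS of set 2, and at 4977 in scr, 4729 with luciferase siRNA, 4464 in SP, 4351 in 3p, 4327 in 5p and 3808 in SATS of set 3. The *Stag1* siRNA libraries of sets 2 and 3 were each below both control libraries of their set. *Polr1b* had only 248 reads in the scr library of set 1 and a normalised read count of 1661 there, with 2430, 2647 and 2472 in SP. In set 2 *Polr1b* was at 2513 in scr, 2551 in untreated cells, 2347 in SP, 2306 in 3p, 2342 in 5p and 2145 in SATS, and in set 3 at 3167 in scr, 2984 with luciferase siRNA, 2713 in SP, 2734 in 3p, 2949 in 5p and 2463 in SATS. The *Stag1* siRNA libraries were again below both controls in sets 2 and 3, whereas the SP libraries of set 1 were above scr.

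*Ubtf* and *Rrn3* encode Pol I initiation factors. *Ubtf* had a normalised read count of 4748 in scr and 4527, 3927 and 3688 in SP of set 1. It was at 3515 in scr, 3408 in untreated cells, 3769 in SP, 3656 in 3p, 3380 in 5p and 3372 in SATS of set 2, and at 3385 in scr, 3271 with luciferase siRNA, 3093 in SP, 3044 in 3p, 3082 in 5p and 3212 in SATS of set 3. The order of the 4 *Stag1* siRNAs differed between sets 2 and 3 for *Ubtf*. *Rrn3* had a normalised read count of 4889 in scr and 5067, 5265 and 4574 in SP of set 1. It was at 4132 in scr, 3868 in untreated cells, 3757 in SP, 3892 in 3p, 3526 in 5p and 3933 in SATS of set 2, and at 5252 in scr, 5142 with luciferase siRNA, 4800 in SP, 4977 in 3p, 4121 in 5p and 4638 in SATS of set 3. The 5p library was the lowest for *Rrn3* in both sets, and the 5p values lay below both scr values.

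**Figure D1:**
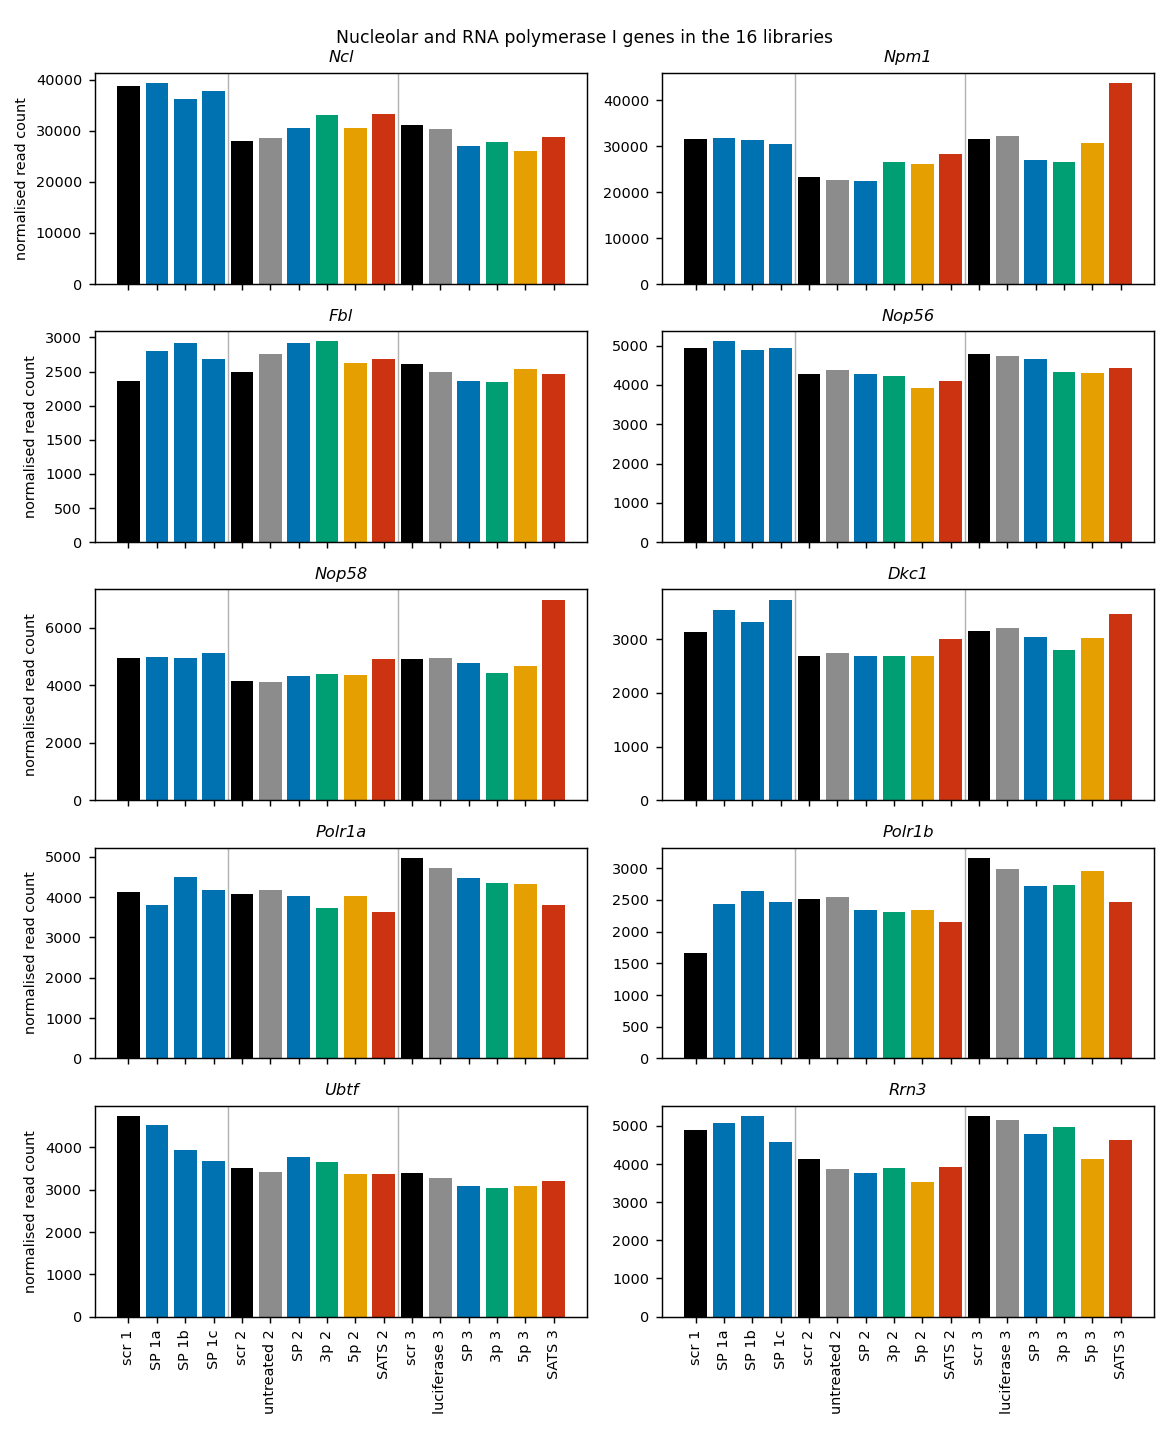
Normalised read count of each of the 10 genes (y axis, from 0) in the 16 libraries (x axis, with the replicate number), coloured by siRNA, with vertical lines between sets. The *Npm1* and *Nop58* bars of SATS in set 3, 43746 and 6984, are the highest of their panels, and the *Polr1b* bar of scr in set 1, 1661, is the lowest of its panel.

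Between controls, the members differed little. The log2 ratio of untreated cells to scr in set 2 ran from −0.10 for *Rrn3* to 0.14 for *Fbl*, and that of luciferase siRNA to scr in set 3 from −0.09 for *Polr1b* to 0.03 for *Dkc1*. The median size of these ratios was 0.04 in either pair of controls, against 0.10 and 0.07 over all genes with a mean of at least 50 normalised reads in the pair. In the *Stag1* siRNA libraries of sets 2 and 3, the median size over the members ran from 0.08 to 0.17, against 0.10 to 0.16 over all genes. No member reached a 2-fold ratio to scr in any library, and the largest ratio in sets 2 and 3 was the 0.50 of *Nop58* in SATS of set 3.

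**Figure D2:**
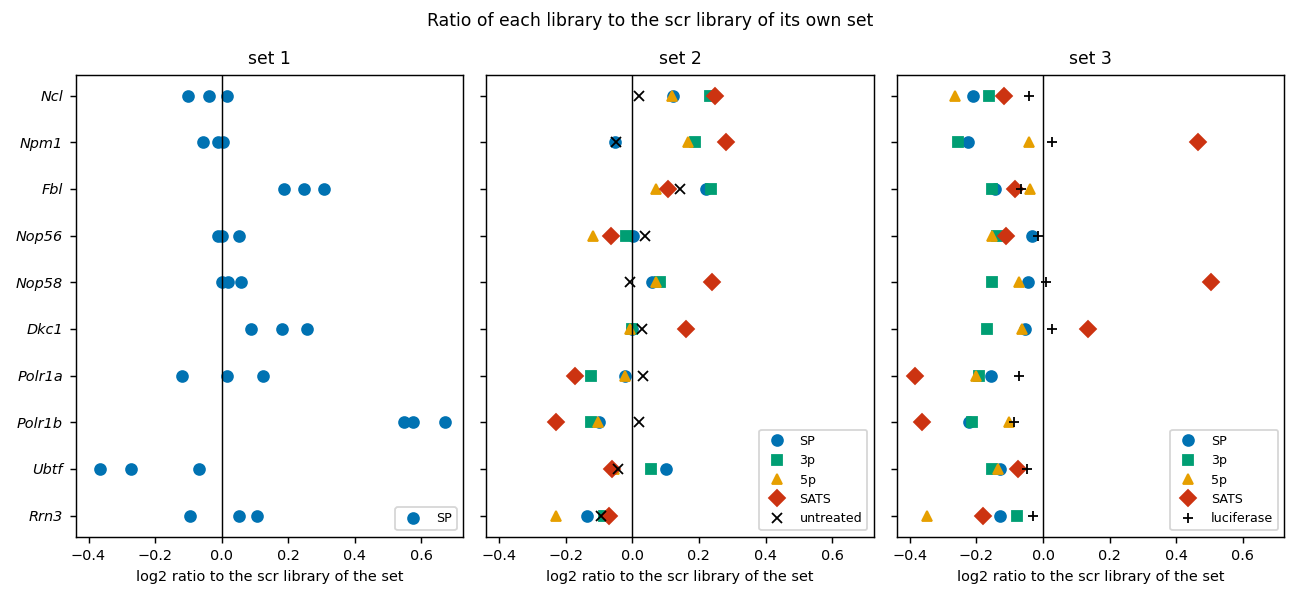
Log2 ratio of every library to the scr library of its own set (x axis) for the 10 genes (y axis), with 1 panel per set and 1 symbol per siRNA or control. In set 3 all 10 genes lie left of 0 in SP, 3p and 5p, with medians of −0.14, −0.16 and −0.12, and in set 1 the 3 SP points of *Polr1b* lie at 0.55 to 0.67.

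In set 3, all 10 members were below scr in each of the SP, 3p and 5p libraries, and 9 of the 10 (all but *Fbl*) were below both the scr and the luciferase library in all 3. Of all 16490 genes, 12.4% were below both controls of set 3 in these 3 libraries. The share of all genes below scr alone in all 3 was not counted. In set 2 the same held for 3 members, *Polr1a*, *Polr1b* and *Dkc1*, against 13.5% of all genes. The members below both controls in SP, 3p and 5p of both sets were thus *Polr1a*, *Polr1b* and *Dkc1*, of which *Dkc1* stood at 99.6% to 99.9% of scr in set 2. The share of all genes below both controls in both sets was not counted, so this describes the values and is no result about the members. These counts were chosen after the values were seen, and the 3 siRNAs of a set share its control libraries, so that they are 1 comparison per set and not 3.

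SP against scr asks how the siRNA pool changed the members over all 3 sets. The fitted log2 fold changes, for which SP 1a, 1b and 1c counted as 1 averaged sample, ran from −0.10 for *Npm1* to 0.11 for *Fbl*, with a median of −0.02 against 0.01 over all 15970 genes. In limma with Benjamini-Hochberg adjustment over all genes, 0 of 10 members passed, where 0% of all genes passed (0 of 15970, and 84 at an unadjusted p under 0.05). Same-numbered libraries deviated together, so the set was also entered as a block (the fit with the set as a block), and 0 of 10 members and 0% of all genes passed there too. No member had an unadjusted p under 0.05 in either fit, and edgeR on the recovered reads called 0 members with and without the block. The target *Stag1*, at a log2 fold change of −2.15, did not pass in limma either (adjusted p = 0.225 without the block and 0.0534 with it). The absence of calls over 3 sets therefore does not show that the members were unchanged. All 10 members passed the filter on low values in every comparison. The 95% intervals of the members in the fit with the set as a block reached from −0.29 to 0.47.

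*Polr1b* was the widest of these. In set 1 its SP libraries were at 146%, 159% and 149% of scr, and counting error on the 248 scr reads and the SP reads together gave 95% intervals of the log2 ratio of 0.33 to 0.77, 0.47 to 0.88 and 0.33 to 0.82. With 1 scr library in set 1, this difference has no replicate check. In sets 2 and 3, SP was at 93.4% and 85.7% of scr. The fitted log2 fold change of *Polr1b* was 0.09 ± 0.23 (SE without the block, 3 sets), and it turned to −0.16 without the scr library of set 1. Over 29 settings, 9 of the 10 members, all but *Fbl*, took the opposite sign at least once in this comparison.

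In sets 2 and 3, fitted together with the other siRNAs, the log2 fold changes of SP ran from −0.16 for *Polr1b* to 0.04 for *Fbl*, with a median of −0.04 against 0.00 over all 16490 genes. Of the 10 members, 0 passed, against 0.00606% of all genes without the block and 0.746% with the set as a block. The 1 gene that passed without the block was the target *Stag1* (adjusted p = 0.00116, limma). The absence of other calls in that fit therefore does not show that the members were unchanged. The 5 members *Npm1*, *Polr1a*, *Polr1b*, *Rrn3* and *Dkc1*, were lower than scr in both sets, where 29% of all genes were, and 0 were higher in both sets, where 28.5% of all genes were. Of these 5, *Dkc1* was at 99.9% of scr in set 2. *Polr1b*, at −0.16 ± 0.07 (SE in the fit with the set as a block), had an unadjusted p of 0.0432 and an adjusted p of 0.383 in limma.

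The 3p siRNAs gave similar sizes. By the catalogue numbers in the study's methods, the siRNAs of 3p are also listed for the SP pool, so SP and 3p are not separate reagents. Log2 fold changes ran from −0.17 for *Polr1b* to 0.04 for *Fbl*, with a median of −0.06 against 0.00 over all genes (−0.0041), and 0 of 10 members passed, against 0.00606% of all genes in the fit without the block and 0.285% in that with it. Again *Stag1* was the 1 gene that passed without the block (adjusted p = 0.00103, limma), so that fit does not show the members to be unchanged. *Nop56*, *Polr1a*, *Polr1b*, *Rrn3* and *Dkc1* were below scr in both sets, where 29.7% of all genes were, and 0 members were above it in both, where 25.9% were. In set 2, however, *Rrn3* in 3p (3892) was above the untreated library (3868), and *Dkc1* was at 99.9% of scr. The catalytic subunits had the largest values, with *Polr1b* at −0.17 ± 0.07 (unadjusted p = 0.0359, adjusted p = 0.439) and *Polr1a* at −0.16 ± 0.08 (unadjusted p = 0.0553, adjusted p = 0.491, limma with the set as a block). Interval ends over the members were −0.32 and 0.26 in that fit.

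The 5p siRNA is directed at the 5′ end of *Stag1*. As it was a single duplex, the loss of *Stag1* RNA and other effects of that sequence cannot be told apart in 5p. *Rrn3* was at 85.3% and 78.5% of scr, its log2 ratios were −0.23 and −0.35, and its fitted log2 fold change was −0.29. The 95% interval was −0.45 to −0.13 with the set as a block, where the adjusted p of 0.0548 missed the threshold, and −0.74 to 0.16 without the block, where the adjusted p was 1.00 (limma). With the block, leaving out any 1 of the 5p and scr libraries put the adjusted p of *Rrn3* between 0.0885 and 0.384, with 0 calls, and over the 4 fits with the block and all libraries it ran from 0.0150 to 0.0549. *Rrn3* passed in 2 of these 4, the one with TMM scaling and the one in which untreated and luciferase libraries joined the controls.

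Other members were closer to scr in 5p. *Nop56* had a log2 fold change of −0.14, *Polr1a* of −0.11, *Polr1b* and *Ubtf* of −0.10, *Ncl* of −0.07, *Dkc1* of −0.03, *Nop58* of 0.00 (−0.00106), *Fbl* of 0.02 and *Npm1* of 0.06, with a median over the 10 members of −0.08 against 0.01 over all genes. Of the 10 members 0 passed, against 0.0121% of all genes without the block and 2.37% with it. *Stag1* was among the genes that passed without the block (adjusted p = 0.00170, limma), and so few calls do not show that the members were unchanged. The 6 members *Nop56*, *Polr1a*, *Polr1b*, *Ubtf*, *Rrn3* and *Dkc1*, were below scr in both sets, against 30.1% of all genes, and 0 were above it in both, against 32.7%. These 6 include both catalytic subunits and both initiation factors of Pol I, and *Dkc1* among them was at 99.6% of scr in set 2. Of the cell type markers in this comparison, 5 of 7 fibroblast markers were higher in 5p and 2 lower (median log2 fold change 0.04), with *Col1a1* alone called, lower, with the block. Of the primitive endoderm markers 6 of 7 were higher (median 0.40), of the ES cell markers 6 of 9 (median 0.08) and of the neural markers 2 of 5 (median −0.05), with 0 called, and the part of such cells in the members' values was not tested.

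Directly compared, 5p and 3p differed in none of the members by the adjusted threshold: 0 of 10 passed, against 0% of all genes without the block and 3.26% with it. Differences (5p minus 3p, log2) ran from −0.21 for *Rrn3* to 0.10 for *Npm1*. *Rrn3* had a 95% interval of −0.36 to −0.05 with the set as a block (unadjusted p = 0.0131, adjusted p = 0.164, limma). Here too the end of *Stag1* aimed at and the sequence of the 5p duplex cannot be told apart. The other members had intervals that held 0, the widest being those of *Ncl* (−0.34 to 0.12) and *Npm1* (−0.17 to 0.36).

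**Figure D3:**
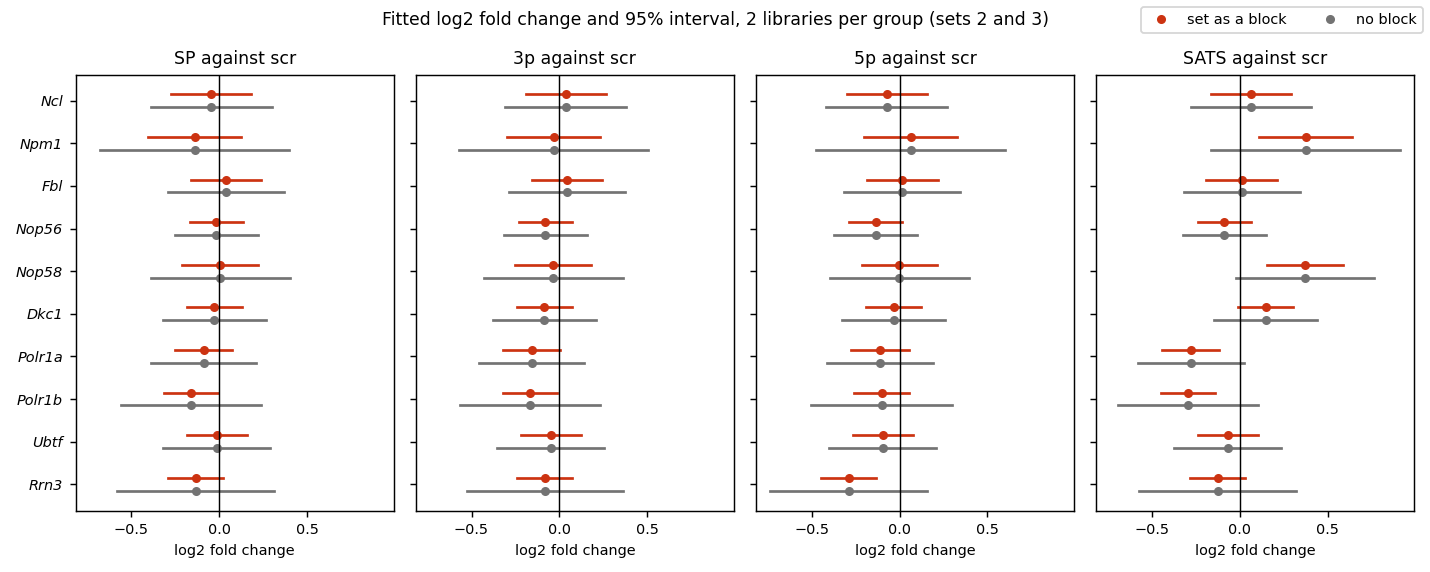
Fitted log2 fold change (points) and 95% interval (lines) of each of the 10 genes against scr for SP, 3p, 5p and SATS in sets 2 and 3, in limma without a block (grey) and with the set as a block (red). With the block, the intervals of *Npm1*, *Nop58*, *Polr1a* and *Polr1b* in SATS and of *Rrn3* in 5p lie apart from 0, as do those of *Polr1b* in SP and 3p, which end at −0.01.

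SATS gave the largest differences, and in opposite directions. It was the only enzymatically prepared siRNA to *Stag1*, and the control of that kind, luciferase, was sequenced in set 3 alone. Target and kind of siRNA therefore cannot be told apart in SATS against scr. *Polr1b* was at 85.3% and 77.8% of scr in sets 2 and 3, and *Polr1a* at 88.8% and 76.5%. The SATS values of both genes lay below both scr values. *Npm1* was at 122% and 138% of scr and *Nop58* at 118% and 142%, above the scr library in each set but overlapping with scr when the sets were pooled.

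In the test without the block 0 of 10 members passed for SATS, where 0% of all genes passed (0 of 16490 in limma, 650 at an unadjusted p under 0.05, and 0 members in edgeR). The target *Stag1* did not pass there either (log2 fold change −0.996, adjusted p = 0.633 in limma). The absence of calls in that fit therefore does not show that the members were unchanged. With the set as a block 1 of 10 passed, against 2.64% of all genes. This was *Polr1b*, which fell by 0.30 on the log2 scale (SE 0.07, 95% interval −0.45 to −0.14, adjusted p = 0.0464 in limma and 0.0478 in edgeR). A further 3 members had unadjusted p-values under 0.05 in that fit. *Nop58* had a log2 fold change of 0.37 (95% interval 0.16 to 0.59, adjusted p = 0.0653), *Polr1a* of −0.28 (−0.44 to −0.12, adjusted p = 0.0662) and *Npm1* of 0.37 (0.11 to 0.64, adjusted p = 0.115).

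The remaining members under SATS were *Dkc1* with a log2 fold change of 0.15 (95% interval −0.01 to 0.30), *Ncl* with 0.06, *Fbl* with 0.01, *Ubtf* with −0.07, *Nop56* with −0.09 and *Rrn3* with −0.13. The median over the 10 members was −0.03 against 0.00 over all genes (−0.0038). *Npm1*, *Nop58* and *Dkc1* were above scr in both sets, against 32.4% of all genes, and *Nop56*, *Polr1a*, *Polr1b*, *Ubtf* and *Rrn3* were below it in both, against 33.8%. In set 2, however, *Rrn3* in SATS (3933) was above the untreated library (3868). The members' 3 of 10 above scr is close to the share of all genes. Without the SATS library of set 3, the adjusted p with the set as a block was 0.415 for *Polr1b*, 0.577 for *Nop58*, 0.480 for *Polr1a* and 0.690 for *Npm1*. Leaving out any 1 of the SATS and scr libraries put the adjusted p of *Polr1b* between 0.0599 and 0.415, over the threshold each time.

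**Figure D4:**
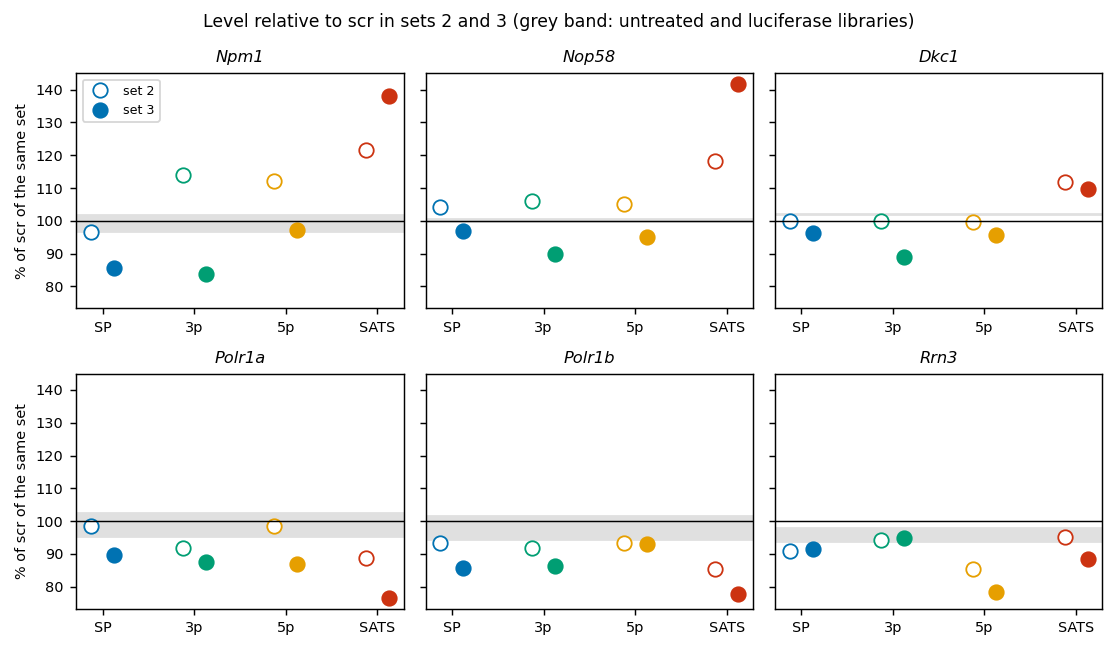
Level as a percentage of scr of the same set (y axis) for 6 genes under the 4 siRNAs (x axis), with open points for set 2, filled points for set 3, a line at 100% and a grey band between the untreated and luciferase libraries. SATS is highest for *Npm1* (122% and 138%), *Nop58* (118% and 142%) and *Dkc1* and lowest for *Polr1a* and *Polr1b*, and 5p is lowest for *Rrn3* (85.3% and 78.5%).

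Whether SATS differed from the other 3 *Stag1* siRNAs was tested after the values were seen, in the same fit. Here too target and kind of siRNA cannot be told apart. With the set as a block, *Npm1* was 0.41 higher on the log2 scale in SATS than in the mean of SP, 3p and 5p (95% interval 0.20 to 0.63, adjusted p = 0.0227 in limma), and *Nop58* was 0.38 higher (0.21 to 0.56, adjusted p = 0.0126). These were 2 of 10 members, against 9.36% of all genes. In the same fit all 7 primitive endoderm markers were lower in SATS (median −0.20, 0 called), *Col1a1* was called higher among 7 fibroblast markers (4 higher, median 0.05) and *Tubb3* lower among 5 neural markers (2 higher, median −0.15), while 6 of 9 ES cell markers were higher (median 0.06, 0 called). The part of such cells in these values was not tested. Without the block 0 of 10 passed, against 0.00606% of all genes, which was *Stag1* alone. *Dkc1* was 0.20 higher (0.07 to 0.32, adjusted p = 0.0526 in limma and 0.0456 in edgeR), *Polr1a* 0.16 lower (−0.159, adjusted p = 0.126) and *Polr1b* 0.15 lower (−0.152, adjusted p = 0.127). In each set the SATS library was above SP, 3p and 5p for *Npm1*, *Nop58* and *Dkc1* and below them for *Polr1a* and *Polr1b*. The share of all genes with such an order in both sets was not counted, so the split is not shown to be particular to the members. Without the SATS library of set 3 the adjusted p was 0.539 for *Npm1* and 0.446 for *Nop58*.

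Transcript length moved with the ratio to scr in the SATS libraries and in others, the untreated library among them. Across 10661 genes with a mean of at least 50 normalised reads and an annotated length, Spearman's rho between transcript length and the log2 ratio to scr was −0.13 in SATS of set 2 and −0.35 in SATS of set 3. In set 3 it was 0.21 in SP, 0.21 in 3p, −0.20 in 5p and 0.02 with luciferase siRNA, and in set 2 it was −0.06 in SP, −0.27 in 3p, 0.05 in 5p and −0.15 in untreated cells. All ratios of a set share its scr library, and genes are not independent replicates. These lengths are of the longest annotated transcript, which for *Nop58* has 9507 bases. Over the 10 members rho was −0.13 and −0.18 in the SATS libraries. The part of length in the members' values was not tested.

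Of the members, 8 had a promoter entry in RefSeq (GRCm38.p6), all but *Npm1* and *Fbl*. The stretches before the start are shown for the 4 of them that stood out above, so that a reader can compare the promoter of *Nop58*, at 118% and 142% of scr in SATS, with those of *Polr1a* and *Polr1b*, and see that of *Rrn3*, the lowest member in 5p. Each is the plus strand, 5′ to 3′, ending before the first annotated exon base, with motif matches in capitals.
Nop58 (chr1:59684756-59684970): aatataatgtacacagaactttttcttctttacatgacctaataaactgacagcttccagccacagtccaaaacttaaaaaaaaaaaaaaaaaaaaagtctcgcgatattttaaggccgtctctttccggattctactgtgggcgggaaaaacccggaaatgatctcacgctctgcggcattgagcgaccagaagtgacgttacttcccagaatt
Polr1a (chr6:71908803-71909052): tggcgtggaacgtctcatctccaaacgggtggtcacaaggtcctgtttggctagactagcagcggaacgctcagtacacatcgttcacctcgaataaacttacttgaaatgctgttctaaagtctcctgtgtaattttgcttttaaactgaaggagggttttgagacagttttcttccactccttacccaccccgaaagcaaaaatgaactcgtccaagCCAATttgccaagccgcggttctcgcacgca
Polr1b (chr2:129100746-129100994): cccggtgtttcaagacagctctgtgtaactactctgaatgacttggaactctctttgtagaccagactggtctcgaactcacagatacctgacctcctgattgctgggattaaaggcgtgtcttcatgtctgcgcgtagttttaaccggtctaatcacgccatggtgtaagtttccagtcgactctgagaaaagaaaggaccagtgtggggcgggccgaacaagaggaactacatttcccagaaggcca
Rrn3 (chr16:13780449-13780698): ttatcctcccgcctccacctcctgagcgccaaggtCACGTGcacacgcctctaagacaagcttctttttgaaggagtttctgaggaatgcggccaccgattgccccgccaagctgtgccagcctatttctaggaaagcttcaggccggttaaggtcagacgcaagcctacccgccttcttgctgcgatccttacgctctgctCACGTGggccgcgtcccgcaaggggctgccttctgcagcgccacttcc
Both strands of the 250 bases before each start were searched for 4 motifs. The E-box was searched as CACGTG and the ETS motif, bound by a large family of transcription factors, as CCGGAAG. The CCAAT box was searched by the letters of its name, and the NRF1 motif is given by name. *Rrn3* held 2 E-boxes, starting 215 and 48 bases before the start, and was the only 1 of the 8 genes with an E-box, where 6.02% of 32851 promoters of the same length held one. CCAAT was held by 3 of the 8, *Nop56*, *Polr1a* and *Ubtf* (in 1 of its 6 entries), against 33.9% of promoters, and ETS and NRF1 by 0 of the 8, against 6.91% and 3.74%. *Polr1a* and *Polr1b*, both lowest in SATS within sets 2 and 3, shared no match among these 4 motifs. A match is a description of the letters in this window.

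In the GENCODE annotation of GRCm38, the members are protein-coding genes on 7 chromosomes. Their positions put *Ncl* at chr1:86344719-86359400, *Npm1* at chr11:33152287-33163206, *Fbl* at chr7:28169710-28179269, *Nop56* at chr2:130274430-130279313, *Nop58* at chr1:59684971-59719044, *Polr1a* at chr6:71909053-71984935, *Polr1b* at chr2:129100995-129126594, *Ubtf* at chr11:102304560-102319742, *Rrn3* at chr16:13780708-13814839 and *Dkc1* at chrX:75095854-75109777. *Ncl*, *Nop56*, *Nop58* and *Dkc1* are hosts of snoRNA genes. *Nop56* shares 5 exon bases with *Idh3b*, *Dkc1* 45 with *Mpp1* and *Polr1a* 185 with *Gm26628*, each on the opposite strand, and although the pipeline was run as reverse-stranded for paired reads, whether the counting used strand is not given in the sources used here.

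The other genes of ribosome production were taken from lists that were chosen with earlier results of these data known. They comprised 13 subunits of Pol I, 12 Pol I initiation and termination factors, 11 box C/D and 6 box H/ACA proteins, 11 nucleolar scaffold proteins and chaperones, 40 proteins of the small subunit processome, 41 large subunit assembly factors, 12 genes of rDNA silencing and the NCL/TRIM28 complex, and 9 of the Myc family, members included. Leaving the members out, 141 genes were tested, and without the block 0 passed in any comparison. With the set as a block, 0 of 141 passed in SP over 3 sets, 3 in SP over sets 2 and 3 (2.13%), 0 in 3p, 3 in 5p (2.13%), 4 in SATS (2.84%) and 2 in 5p against 3p (1.42%), against the shares of all genes given above.

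In SP of sets 2 and 3, *Twistnb*, a Pol I subunit, fell by 0.43 on the log2 scale (SE 0.09, adjusted p = 0.0445). *Rcl1*, which acts in 18S rRNA processing, fell by 0.37 (SE 0.07, adjusted p = 0.0367), and *Pno1*, a small subunit assembly factor, fell by 0.44 (SE 0.09, adjusted p = 0.0344, all in limma with the set as a block). In SATS, *Pno1* rose by 0.40 (SE 0.09, adjusted p = 0.0321) and *Nop10*, a partner of DKC1 in the box H/ACA particle, by 0.49 (SE 0.11, adjusted p = 0.0368). *Nol6* fell by 0.37 (SE 0.09, adjusted p = 0.0374) and *Nat10*, the rRNA acetyltransferase, fell by 0.30 (SE 0.07, adjusted p = 0.0429). *Pno1* was thus called down in SP and up in SATS, in comparisons that share their scr libraries. These genes were named because they passed. Leaving out any 1 library of the arms compared, with the block, ended the calls of *Twistnb*, *Rcl1* and *Pno1* in SP (adjusted p from 0.193 to 0.420 over the 3 genes) and of *Nol6* (0.0595 to 0.414) and *Nat10* (0.0835 to 0.387) in SATS. *Nop10* and *Pno1* passed in SATS only without the SATS library of set 2 (0.00348 and 0.00504), and reached 0.453 and 0.422 without that of set 3. In SATS against the other siRNAs, 13 of the 141 were higher and 2 were lower with the set as a block (10.6%, near the 9.36% of all genes).

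Under 5p, the list medians of the log2 fold change ran from −0.17 for the initiation and termination factors, through −0.09 for Pol I subunits, −0.08 for the small subunit processome, −0.07 for rDNA silencing, −0.06 for large subunit assembly and for nucleolar scaffold proteins, −0.05 for the Myc family and 0.00 for box C/D (−0.00106), to 0.05 for box H/ACA, against 0.01 over all genes. The 3 genes per list with the smallest p in 5p, with their log2 fold changes, were *Polr1d* (−0.20), *Polr2e* (−0.15) and *Cd3eap* (−0.15) among the subunits. They were *Ttf1* (−0.30), which ends Pol I transcription, *Ptrf* (−0.22) and *Tcof1* (−0.19) among the initiation and termination factors. *Rpap3* (0.14), *Ruvbl2* (−0.13) and *Ruvbl1* (−0.09) followed among box C/D factors and *Nop10* (0.29), *Gar1* (0.21) and *Naf1* (0.11) among H/ACA factors. None of these 12 passed, with adjusted p-values of *Ttf1* and *Nop10* of 0.0776 and 0.218 in limma with the set as a block.

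Among scaffold proteins the 3 genes were *Ddx21* (−0.21), *Surf6* (−0.18) and *Gltscr2* (0.13), among the small subunit processome *Utp3* (0.37), *Nat10* (−0.26) and *Dhx37* (−0.22), and among large subunit factors *Rpf2* (0.37), *Nop2* (−0.26) and *Noc2l* (−0.23), with none past the threshold. In the rDNA silencing list, *Kdm2b*, a histone demethylase, had normalised read counts of 1983 in scr and 1386 in 5p of set 2 and of 2394 and 1427 in set 3. It fell by 0.63 on the log2 scale (SE 0.08, adjusted p = 0.000926 with the set as a block and 0.706 without it, limma). *Rrp8* (−0.19) and *Trim28* (−0.20), the partner of nucleolin, did not pass. In the Myc family, *Mxi1*, a MAX partner that opposes MYC, was at 263 and 164 normalised reads in scr and 5p of set 2 and at 241 and 129 in set 3. It fell by 0.79 (SE 0.11, adjusted p = 0.00161), and *Mycl* rose by 0.46 (SE 0.10, adjusted p = 0.0255), while *Myc* (−0.34, adjusted p = 0.123) did not pass in limma with the set as a block. Without the block the adjusted p was 0.504 for *Mxi1* and 0.9998 for *Mycl* (limma). Leaving out any 1 library with the block ended the call of *Mycl* in 5p (adjusted p from 0.108 to 0.304), and leaving out scr of set 3 ended those of *Kdm2b* (0.0613) and *Mxi1* (0.0651), which passed without any 1 of the other 3 libraries. *Kdm2b* and *Mxi1* were also lower in 5p than in 3p, by −0.58 (adjusted p = 0.00117) and −0.82 (adjusted p = 0.000932) in limma with the set as a block. Without the block neither passed in that comparison (adjusted p = 0.646 and 0.362, limma). For these genes as well, the loss of *Stag1* RNA and the sequence of the single 5p duplex cannot be told apart.

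For the other siRNAs the list medians ran from −0.12 (initiation and termination factors) to 0.13 (Myc family) in SP of sets 2 and 3, from −0.08 (initiation and termination factors) to 0.03 (Myc family) in 3p and from −0.12 (rDNA silencing) to 0.08 (box H/ACA) in SATS.

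The *Rn45s* row varied among the control libraries too. The *Rn45s* log2 ratio to scr was 0.40 in SP, 0.01 in 3p, 0.23 in 5p, −0.15 in SATS and 0.28 in untreated cells of set 2. In set 3 it was −0.24 in SP, −0.14 in 3p, 0.12 in 5p, 0.16 in SATS and −0.40 with luciferase siRNA. The control libraries thus spanned a range as wide as the KD libraries, and the fitted log2 fold change in 5p was 0.17 with an SE of 0.32 in the fit with the set as a block (adjusted p = 0.851, limma). Because rRNA was depleted before sequencing, this row holds what the depletion left, and it cannot tell the precursor from mature rRNA. The snoRNA genes within *Ncl*, *Nop56* and *Nop58* that the table holds (7 rows) had median values of 4.76 to 36.1 normalised reads, too few to follow.

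Over the 12 libraries of sets 2 and 3, with the mean of the own set removed, the members did not vary as 1 group. Pearson's r of log2 values was highest for *Npm1* and *Nop58* (0.92), *Polr1a* and *Polr1b* (0.91), *Nop58* and *Dkc1* (0.86) and *Npm1* and *Dkc1* (0.83), and lowest for *Nop58* and *Polr1a* (−0.70). The genes most like the mean of the 10 members, of 11026 with a mean of at least 50 normalised reads, were *Rasgrp2* (r = 0.93), *Ube2m* (0.92), *Sbds* (0.91), *Psors1c2* (0.88) and *2310007B03Rik* (0.88). These correlations describe 12 libraries of 2 sets, each with 1 scr library, and carry no p.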

How the data were processed

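RNA of 16 libraries of male E14 mESCs was prepared with a directional kit after rRNA depletion. Per the study's methods, the authors used HISAT2 and mm10 for alignment of the reads and featureCounts for the count of each gene, which they divided by the library's DESeq2 (1.14.1) size factor. Those methods give the reads as paired-end or single-end without naming the libraries of each kind. The deposited values are therefore a depth-normalised signal per gene (normalised read counts), and 100% of them were whole multiples of 1 read within 0.01. A second deposited table, the CPM values of set 1 alone, was not used, and 2 libraries of 2i cells were not analysed here. The main test was limma 3.58.1 (lmFit, eBayes with trend, R 4.3.3) on log2(value + 1), for genes whose values summed to at least 10, with Benjamini-Hochberg adjustment over all genes and a threshold of 0.05, so that fold changes are on that scale. This understates the change of low genes. Comparisons within sets 2 and 3 come from 1 fit of 10 libraries. The mean of SP 1a, 1b and 1c entered as 1 sample. Groups came from the labels. The sets are described as independent replicates, but nothing names separate cultures, so p-values measure only the spread between these libraries.

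Deviations from the group means correlated between libraries of a set (mean r = 0.80 over 3 pairs, 0.77 to 0.82, and 0.86 over 20 pairs, 0.81 to 0.93), so the set numbers, which come from the labels, pair the samples, and the fit with the set as a block is given beside the main one. For the 20 pairs each group has 2 libraries, whose deviations are mirror images. Every r of set 2 therefore recurs in set 3, and the 20 pairs are not 20 separate values. Alternatives were the block, pseudocounts of 0.1 and 10, other filters, TMM scaling, edgeR 4.0.16 (quasi-likelihood, on the recovered reads), added control libraries, and leaving out each library. Interval bounds on single ratios (95%) cover counting error only. The fits were tested on simulated data. The 10 genes and the gene lists were chosen with earlier results of these data known. From each list, the 3 genes with the smallest p in 5p against scr (block, mean of at least 50) were named.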

Additional observations from a re-analysis of the deposited data

Results flagged for a closer look

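*Npm1* and *Nop58* passed the test of SATS against the other siRNAs to *Stag1*, a comparison chosen after SATS had been seen to be the highest library for both. SATS minus the mean of SP, 3p and 5p was 0.41 for *Npm1* (adjusted p = 0.0227) and 0.38 for *Nop58* (adjusted p = 0.0126) on the log2 scale in limma with the set as a block. Without the block the adjusted p-values were 0.791 and 0.719, and without the SATS library of set 3, with the block, they were 0.539 and 0.446.

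Opposite signs in every library flagged the remaining results, and these differences were not tested. For *Ncl*, the mean log2 ratio to scr over the 4 siRNAs was 0.18 in set 2 and −0.19 in set 3, a difference of 0.37. *Fbl* had means of 0.16 and −0.11 in the same sets, a difference of 0.26. As each set has 1 scr library, the 4 ratios of a set are not independent. *Npm1* had a mean log2 ratio of −0.14 in SP and 0.37 in SATS, a difference of −0.51. *Dkc1* had a mean of 0.15 in SATS against −0.03 in SP, −0.09 in 3p and −0.03 in 5p, with differences of −0.17, −0.23 and −0.18. Of the 10 members, 0 had an SP library that stood apart from the other 4 SP libraries.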

How the results depend on the processing

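Without the block, pseudocount, filter, TMM scaling and edgeR changed no count of calls. With the set as a block, limma called 0 genes in SP over 3 sets, 123 in SP over sets 2 and 3, 47 in 3p, 391 in 5p, 436 in SATS, 537 in 5p against 3p and 1544 in SATS against the other siRNAs, which was added after the data were seen. In the same order, edgeR with the block called 66, 134, 50, 397, 550, 529 and 1708 genes. TMM scaling with the block, also added later, gave 0, 122, 46, 413, 434, 536 and 1565. With untreated and luciferase libraries as further controls and the block, 29, 387, 219, 1119 and 1785 genes were called in the first 5 comparisons.

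Members called were 1 in SATS and 2 in SATS against the other siRNAs with the block, against 2.64% and 9.36% of all genes. They were 1 and 3 with edgeR and the block, against 550 and 1708 of 16490 genes. With TMM scaling and the block they were also 1 and 3, against 434 and 1565 of 16493 genes. That setting called 1 member (*Rrn3*) in 5p too, against 413 of 16493 genes. Members called were 1 in 5p and 4 in SATS with the further controls and the block, against 1119 and 1785 of 16684 genes. The block changed no other call of a member. With the block, leaving out 1 library at a time gave 0 to 475 genes in SP over 3 sets (475 without scr of set 1, 470 without SP of set 1), 6 to 32 in SP over sets 2 and 3, 2 to 49 in 3p, 20 to 421 in 5p, 3 to 722 in SATS (3 without SATS of set 3), 84 to 650 in 5p against 3p and 21 to 1823 in SATS against the other siRNAs (21 without SATS of set 3). Without the block the counts were 0, 1, 1, 1, 0, 0 and 0 each time. Members called ran from 0 to 2 in SATS and from 0 to 3 in SATS against the other siRNAs, with 0 without SATS of set 3 in both. Without SATS of set 2, *Npm1* (0.57, adjusted p = 0.0281) and *Nop58* (0.56, adjusted p = 0.00551) passed against scr in limma with the block. A lone sample in an arm is assumed to vary like the other groups.

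The sign of most members' values depended on the libraries or settings used. Of the 70 pairs of a member and a comparison, 51 took the opposite sign in at least 1 setting, among them 10 of 10 members in SP over sets 2 and 3, 9 in SP over 3 sets, 9 in 5p against 3p, 8 in 3p, 7 in 5p, 5 in SATS against the other siRNAs and 3 in SATS (*Ncl*, *Fbl* and *Rrn3*). *Polr1b* is an example. In SP over 3 sets it was −0.16 (log2) without scr of set 1, without and with the block (−0.162 and −0.161), and −0.161 without SP of set 1 with the block, in a range of −0.162 to 0.303. In SP over sets 2 and 3 it was 0.01 (0.00562) without scr of set 3, in a range of −0.328 to 0.00562. Values of 24 pairs of a gene and a comparison, not of every gene named, were followed under every alternative. None of these pairs passed in the main fit. In 376 of the values the direction was kept and the threshold again not passed. In 82 the direction was kept and the threshold passed only there, and in 4, all of *Polr1b*, the sign changed. TMM scaling moved libraries by at most 0.04 on the log2 scale (−0.0384 in scr of set 1). Set 1 was the shallowest, with 248 reads for *Polr1b* in scr.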
